A study of Mus musculus with 8 samples.

Results

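The genes described here are 44 genes of the DNA replication machinery, among 19937 genes measured on 8 Affymetrix arrays of NMuMG cells, an epithelial cell line from the mouse mammary gland. They were chosen by name, with earlier results of these data known. They hold a part of the subunits and helpers of the replication fork, enzymes of nucleotide supply and 3 E2F transcription factors. A gene was read from a probeset to which the platform's probe table gave 1 symbol. All 44 were measured, and 3 of them (Pcna, Tk1 and Slbp) had a further probeset. The arrays held total RNA from cells that carried, by stable transfection, either a control vector or a vector for major satellite, which is the repeat of mouse pericentromeric heterochromatin. Each of these lines was sampled without TGFbeta (0 h) and after TGFbeta for 8 h, which makes 4 groups of 2 arrays, so the untreated cells carried a vector as well. The dose of TGFbeta and whether a line was a clone or a pool were not given in the labels. The arrays bore replicate number 1 or 2, read from a code in their titles that 1 array of every group shared.

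DNA is copied once per cell cycle. In G1 the origin recognition complex, Cdc6 and Cdt1 load the ring-shaped Mcm2 to Mcm7 helicase onto origins, and in S phase Cdc45 and the GINS complex turn it into an active helicase, which polymerases, a sliding clamp, its loaders and flap-processing enzymes follow. Many of the genes involved are transcribed at the G1/S boundary by E2F factors, which pocket proteins of the retinoblastoma family hold back, and TGFbeta is known as an inhibitor of proliferation that arrests many epithelial cells in G1.

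To show the kind of element through which E2F factors act, stretches before the start site of 6 member genes are printed. They are the 6 with the largest averaged falls among the members with a motif before the start, in the order of their TGFbeta difference. The motifs searched were TTTCCCGC, TTTCGCGC, TTTGCCGC and TTTGGCGC, on both strands and with overlapping matches counted, in windows of 250 bases before to 50 bases after each gene's start in RefSeq's annotation of GRCm38.p6. Each stretch holds the motif, in capitals, with up to 30 bases on either side, 5′ to 3′ on the gene's strand.
Cdc6, chr11:98907983-98908050, plus strand: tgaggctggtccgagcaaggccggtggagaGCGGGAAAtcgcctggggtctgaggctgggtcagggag
Pola1, chrX:93632256-93632323, minus strand: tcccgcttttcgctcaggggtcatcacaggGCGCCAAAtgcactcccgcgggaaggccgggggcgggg
Orc1, chr4:108579397-108579453, plus strand: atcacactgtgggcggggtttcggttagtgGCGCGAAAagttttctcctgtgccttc
Mcm5, chr8:75109326-75109397, plus strand: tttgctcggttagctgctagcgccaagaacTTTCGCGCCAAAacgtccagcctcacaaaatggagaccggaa
Gins3, chr8:95633488-95633555, plus strand: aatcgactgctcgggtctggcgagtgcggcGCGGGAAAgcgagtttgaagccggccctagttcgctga
Rfc3, chr5:151651209-151651248, minus strand: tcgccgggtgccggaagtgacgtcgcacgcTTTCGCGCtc
The motif's first base lay 138 bases before the start in Cdc6 and Pola1, 41 in Gins3, 27 in Orc1 and 10 in Rfc3, and Mcm5 held 2 matches that overlap each other. A window was given for 37 members, of which 14 (37.8%, 95% Wilson interval 24.1% to 53.9%, counting error only) held a motif, beside 2.60% of 27025 genes with a window and 3.48% of the 15613 measured on these arrays. Within the last 150 bases before the start the share was 18.9% (7 of 37), beside 1.44% of all genes and 1.92% of those measured. A motif was also found in Mcm7 and Mcm6, before the start, and in Mcm3, Cdt1, Pole2, Lig1, Clspn and E2f2, after it. A match is a run of letters and does not show binding.

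Values are deposited log2 expression values, and a difference is the level at 8 h minus the level at 0 h, so a difference of -1 is a halving of the linear value. Wherever 2 array values or pairs are given together, number 1 comes first. Levels of different probesets are not comparable with each other. Array medians lay between 7.72 and 7.76 for number 1 and between 7.88 and 7.92 for number 2. All tests are from limma, two-sided, adjusted over the 19937 genes by Benjamini-Hochberg, with 0.05 as the threshold for passing. The 2 replicate numbers differed across the whole array, so each result is given from a model of the 4 groups alone, called unblocked, and from the model that also holds the replicate number, called blocked. Both give the same difference and different errors. Errors are standard errors (SE), and p-values reflect the spread among these arrays alone, since nothing in the labels says that they came from separate cultures. Among the epithelial markers, Krt8 (14.19 to 14.42) and Cdh1 (12.72 to 13.16) were high on every array. Others were low: Epcam (6.53 to 7.16), Cldn7 (mean 6.84) and Esrp1 (mean 6.09) lay below the median gene of every array (8.14 to 8.23). Of the 10 epithelial markers, Krt19 fell with TGFbeta in the average over both vectors (-0.74 ± 0.11, adjusted p = 0.0178 unblocked, 3.09e-05 blocked). In the blocked model alone Ocln fell (-0.34, 0.0298) and Epcam (0.39, 0.00981), Cldn3 (0.31, 0.0261) and Dsp (0.22, 0.0453) rose. The summed level of the 10, to which the brightest probesets contribute most, was 15.85 to 15.98 at 0 h and 15.82 to 15.92 at 8 h on the log2 scale. That of 7 mesenchymal or fibroblast markers was 10.12 to 10.40 at 0 h and 10.45 to 10.63 at 8 h, and of these Pdgfra rose by 0.66 ± 0.12 (adjusted p = 0.0281 unblocked, 0.000162 blocked), while Pdgfrb (0.29, 0.00778) and Col1a1 (0.47, 0.00103) rose in the blocked model alone. The sums of 5 endothelial markers (8.76 to 9.06 at 0 h, 8.96 to 9.21 at 8 h) and 5 measured immune markers (9.61 to 9.90 and 9.60 to 9.96) overlapped between 0 h and 8 h. Of the endothelial markers Cdh5 rose in the blocked model alone (0.30, 0.00783), and no immune marker passed in either model. The part of any of these markers in the results below was not tested.

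With TGFbeta the replication genes were lower in nearly every pair of arrays. Within a replicate number, the median difference over the 44 genes was -0.49 (number 1) and -0.92 (number 2) with the control vector, and -0.44 and -0.73 with the major satellite vector, beside medians between -0.01 and 0.04 over all genes. Of the 44 genes, 43 were lower at 8 h in all 4 pairs, against 20.2% of all genes. The exception was Pcna, on the probeset used. Averaged over both vectors, differences ran from -1.36 for Dscc1 to -0.21 for Pcna, with a median of -0.63 (all genes 0.02). The average lay below -1 for Dscc1, E2f8, Exo1 and Tk1 (0.968% of all genes did so) and below -0.5 for 32 members (4.62% of all genes). Because the members were chosen with earlier results known, their contrast with all genes, here and below, is not an independent test. In bulk RNA, fewer cells in S phase and less RNA per such cell cannot be told apart.

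How many genes passed depended on the model. Unblocked, 3 members fell in the average over both vectors, Dscc1, Brca1 and Orc6, while 2.25% of all genes fell. Blocked, 43 of 44 fell, all but Pcna, while 13.1% of all genes fell. In control vector cells alone, Dscc1 fell unblocked (0.366% of all genes) and 36 members fell blocked (7.63% of all genes). In major satellite vector cells no member passed unblocked (0.411% of all genes fell) although 9 had an unadjusted p under 0.05 (9.72% of all genes), and 36 fell blocked (8.38% of all genes). No member rose in any of these. The share of all genes that rose was 0.707% with the control vector, 0.682% with the major satellite vector and 2.57% in the average unblocked, and 6.92%, 6.89% and 11.2% blocked. The SE of a member's averaged difference was 0.12 to 0.48 unblocked and 0.06 to 0.15 blocked. With the control vector both 8 h arrays lay below both 0 h arrays for 27 of the 44 genes (14.2% of all genes), and with the major satellite vector for 22 (13.7%). The blocked counts within 1 vector depended most on the arrays of number 2. The share of all genes is not given for the fits with an array left out. Without the number 2 array of control cells at 0 h, the 36 became 15, and without that at 8 h they became 18. The 36 of the major satellite cells became 13 without their number 2 array of either time, 24 without their number 1 array at 0 h and 31 without that at 8 h. In the average over both vectors, the blocked count stayed between 38 and 44 when any of the 8 arrays was left out. The unblocked count of 3 was 1 without the number 2 array of Control at 0 h, of Control at 8 h or of Major at 0 h, or without the number 1 array of Major at 0 h.

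**Figure D1:**
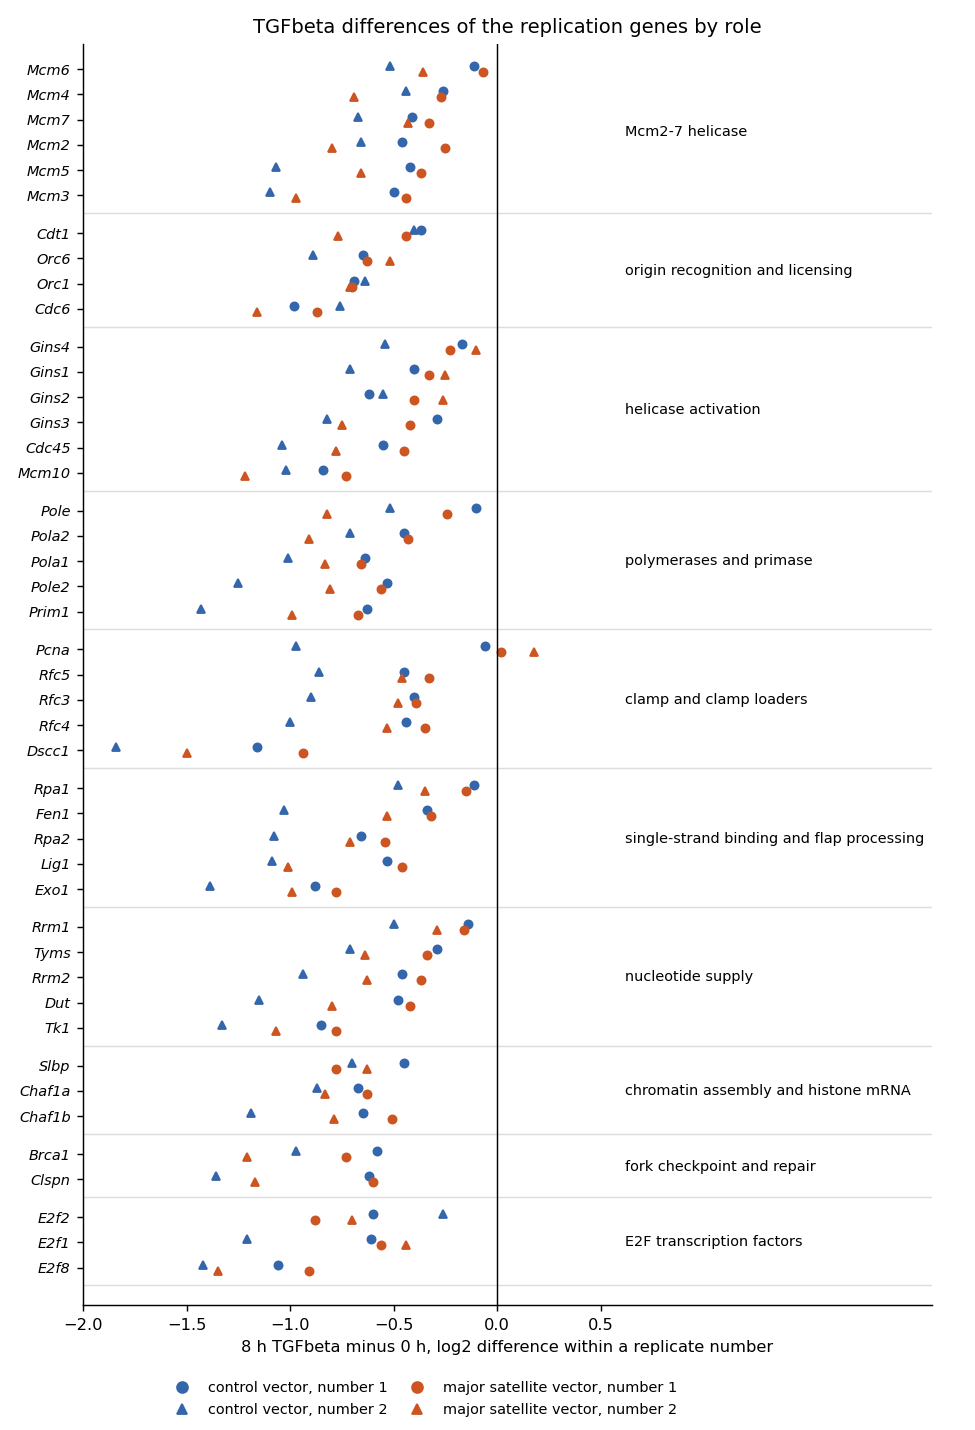
Each row is 1 replication gene, grouped by role, and the horizontal axis is its log2 difference, 8 h TGFbeta minus 0 h, within 1 vector and 1 replicate number (blue, control vector; orange, major satellite vector; circles, number 1; triangles, number 2). All but the major satellite points of Pcna lie left of 0, and most triangles lie left of the circles of the same gene.

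**Figure D2:**
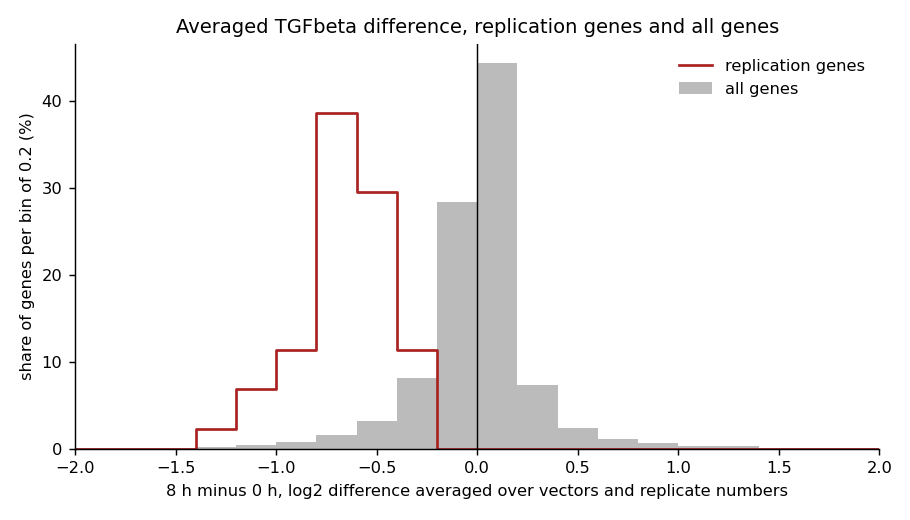
Distribution of the averaged TGFbeta difference (log2, 8 h minus 0 h) over all 19937 genes, as grey bars, and over the 44 replication genes, as a red outline, in percent of each set per bin of 0.2. The 41 genes outside -2 to 2 are not drawn, and the replication genes lie between -1.36 and -0.21, below the all-gene median of 0.02.

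The Mcm2 to Mcm7 subunits form the replicative helicase, which unwinds the parental strands. All 6 were lower, with a median averaged difference of -0.50, and all 6 fell in the blocked model and none in the unblocked. Mcm3 measured 11.77 and 10.99 at 0 h and 11.27 and 9.89 at 8 h with the control vector, and 11.80 and 11.01 at 0 h and 11.37 and 10.04 at 8 h with the major satellite vector. Mcm5 measured 12.43 and 11.82 at 0 h and 12.01 and 10.75 at 8 h with the control vector, and 12.52 and 11.78 at 0 h and 12.15 and 11.13 at 8 h with the major satellite vector. Mcm6 measured 11.95 and 11.59 at 0 h and 11.84 and 11.07 at 8 h with the control vector, and 11.92 and 11.42 at 0 h and 11.84 and 11.06 at 8 h with the major satellite vector. For Mcm3 and Mcm5 the lowest readings with each vector were the number 2 arrays at 8 h, while the number 1 arrays at 8 h still lay above the untreated number 2 arrays, so the groups overlapped. Mcm6, the subunit with the smallest difference, overlapped as well. The averaged difference was -0.75 ± 0.44 for Mcm3 (adjusted p = 0.571 unblocked, 0.00097 blocked with SE 0.11), or 59.3% of the untreated level. It was -0.63 ± 0.38 for Mcm5 (0.587 unblocked, 0.00171 blocked) and -0.27 ± 0.26 for Mcm6 (0.807 unblocked, 0.0424 blocked). Mcm2, Mcm4 and Mcm7 differed by -0.54, -0.41 and -0.46, with blocked adjusted p of 0.00212, 0.00495 and 0.000994. Mcm4 and Mcm7 had both 8 h arrays below both 0 h arrays with either vector. Within 1 vector, Mcm6 did not pass even blocked (-0.32 with the control vector, adjusted p = 0.117, and -0.22 with the major satellite vector, 0.254), and Mcm4 missed with the control vector (-0.35, 0.0797).

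Origin recognition and licensing genes differed by a median of -0.68, and each of the 4 fell in the blocked model. Orc1 and Orc6 are subunits of the origin recognition complex, Cdc6 is the ATPase that joins it to load the helicase, and Cdt1 brings the helicase to it. Cdc6 measured 9.86 and 9.20 at 0 h and 8.88 and 8.44 at 8 h with the control vector, and 9.92 and 9.28 at 0 h and 9.05 and 8.12 at 8 h with the major satellite vector. Orc1 measured 9.21 and 8.66 at 0 h and 8.52 and 8.02 at 8 h with the control vector, and 9.38 and 8.70 at 0 h and 8.68 and 7.99 at 8 h with the major satellite vector. Cdt1 measured 12.04 and 11.03 at 0 h and 11.67 and 10.64 at 8 h with the control vector, and 12.25 and 11.04 at 0 h and 11.81 and 10.26 at 8 h with the major satellite vector. Cdc6 and Orc1 were separated between 0 h and 8 h with either vector, whereas Cdt1 overlapped because its level differed by about 1 log2 unit between the replicate numbers before treatment. Cdc6 differed by -0.94 ± 0.28 (adjusted p = 0.146 unblocked, 4.19e-05 blocked with SE 0.08), to 52.0% of its untreated level. Orc1 differed by -0.69 ± 0.25 (0.243 unblocked, 5.84e-05 blocked), and its 4 pairs lay close together, between -0.71 and -0.64. Orc6, with -0.67 ± 0.12, was 1 of the 3 members that fell in both models (0.0333 unblocked, 8.38e-05 blocked). The widest error belonged to Cdt1 (-0.50 ± 0.48; 0.815 unblocked, 0.00349 blocked with SE 0.09), and within the control vector it did not pass blocked (-0.38, 0.0862).

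Helicase activation genes comprise Cdc45 and the 4 GINS subunits, which join the Mcm ring in the active helicase, and Mcm10, which is needed for its activation. Their median averaged difference was -0.51, and all 6 fell in the blocked model. Mcm10 measured 10.82 and 10.19 at 0 h and 9.98 and 9.18 at 8 h with the control vector, and 10.88 and 10.31 at 0 h and 10.15 and 9.09 at 8 h with the major satellite vector. Cdc45 measured 10.56 and 9.94 at 0 h and 10.01 and 8.90 at 8 h with the control vector, and 10.55 and 9.93 at 0 h and 10.09 and 9.15 at 8 h with the major satellite vector. Gins4 measured 11.55 and 11.30 at 0 h and 11.37 and 10.76 at 8 h with the control vector, and 11.70 and 11.33 at 0 h and 11.47 and 11.22 at 8 h with the major satellite vector. Mcm10 was lower on every 8 h array than on any 0 h array of the same vector, Cdc45 overlapped through its number 1 arrays at 8 h, and Gins4 moved least of the group. The averaged differences were -0.95 ± 0.32 for Mcm10 (adjusted p = 0.2 unblocked, 5.52e-05 blocked), -0.71 ± 0.34 for Cdc45 (0.433 and 0.000448) and -0.26 ± 0.17 for Gins4 (0.643 and 0.0329). Differences between the GINS subunits, which act as 1 complex, were not tested. Gins3 differed by -0.57, Gins2 by -0.46 and Gins1 by -0.42, and Gins1 and Gins2 lay closer to each other than their blocked SE of 0.07 and 0.06. With the major satellite vector, Gins1 (-0.29, adjusted p = 0.0798 blocked) and Gins4 (-0.17, 0.352) did not pass, and with the control vector Gins4 did not (-0.36, 0.0563).

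Polymerase and primase genes had a median averaged difference of -0.78. Prim1 is the catalytic subunit of primase, which makes the RNA primers, Pola1 and Pola2 belong to polymerase alpha, which extends them, and Pole and Pole2 belong to polymerase epsilon of the leading strand. Prim1 measured 11.01 and 10.99 at 0 h and 10.38 and 9.56 at 8 h with the control vector, and 11.21 and 10.95 at 0 h and 10.55 and 9.95 at 8 h with the major satellite vector. Pole2 measured 10.15 and 10.09 at 0 h and 9.61 and 8.84 at 8 h with the control vector, and 10.30 and 10.03 at 0 h and 9.74 and 9.22 at 8 h with the major satellite vector. Pole measured 11.45 and 11.20 at 0 h and 11.35 and 10.68 at 8 h with the control vector, and 11.59 and 11.19 at 0 h and 11.36 and 10.37 at 8 h with the major satellite vector. Prim1 and Pole2 were separated between 0 h and 8 h with both vectors, and the number 2 array of control cells at 8 h was the lowest for each. Pole, the catalytic partner of Pole2, overlapped with both vectors. Prim1 differed by -0.93 ± 0.22 (adjusted p = 0.0705 unblocked, 0.000377 blocked), Pole2 by -0.79 ± 0.20 (0.0986 and 0.000578) and Pole by -0.42 ± 0.26 (0.611 and 0.0209). All 5 fell in the averaged blocked model, and within the control vector Pole did not (-0.31, adjusted p = 0.26). Pola1, at -0.78, was 1 of the few members that stood higher in number 2 than in number 1 before treatment (10.27 against 9.20 with the control vector and 10.16 against 9.34 with the major satellite vector). Pola2 differed by -0.63.

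Clamp and clamp loader genes held both ends of the range. Dscc1 is a subunit of an alternative loader that also serves sister chromatid cohesion, Rfc3, Rfc4 and Rfc5 are subunits of replication factor C, and Pcna is the sliding clamp that they load. Dscc1 measured 7.86 and 8.52 at 0 h and 6.70 and 6.69 at 8 h with the control vector, and 7.99 and 8.28 at 0 h and 7.05 and 6.78 at 8 h with the major satellite vector. Rfc4 measured 11.92 and 11.89 at 0 h and 11.48 and 10.88 at 8 h with the control vector, and 12.02 and 11.92 at 0 h and 11.67 and 11.39 at 8 h with the major satellite vector. Pcna measured 13.71 and 13.26 at 0 h and 13.64 and 12.29 at 8 h with the control vector, and 13.64 and 13.15 at 0 h and 13.67 and 13.33 at 8 h with the major satellite vector. Dscc1 read 7.86 or more untreated and 7.05 or less treated, the latter below the median gene of every array (8.14 to 8.23). Rfc4 was separated too, by a smaller distance, and for Pcna only the control number 2 array at 8 h stood clearly below the others. Dscc1 fell in both models, with a difference of -1.36 ± 0.17 on average (adjusted p = 0.00881 unblocked, 7.39e-05 blocked), to 39.0% of the untreated level. With the control vector alone it was -1.50 ± 0.24 (0.0486 unblocked, 0.000709 blocked), and with the major satellite vector -1.22 ± 0.24 (0.0889 unblocked, 0.00217 blocked). The unblocked call with the control vector was lost when any 1 of the 8 arrays was left out and under quantile normalization or median centring. Rfc4 differed by -0.58 ± 0.15 on average (0.0945 and 0.00144), and within the major satellite vector it missed in the blocked model (-0.44, 0.0511). Rfc3 and Rfc5 differed by -0.54 and -0.52, and both fell in the blocked model (0.00122 and 0.000932).

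Pcna was the member that passed in no model, with an averaged difference of -0.21 ± 0.31 (limma adjusted p = 0.902 unblocked, 0.362 blocked). Its pairs were -0.06 and -0.97 with the control vector and 0.02 and 0.18 with the major satellite vector. Without the control number 2 array at 8 h the average was 0.13 unblocked and 0.02 blocked, so its sign rested on that array. The further Pcna probeset gave -0.16 and -0.86 with the control vector and -0.13 and -0.03 with the major satellite vector, all below 0. The further probesets of Tk1 (-0.86, -1.56, -0.85 and -1.23) and Slbp (-0.63, -0.99, -0.64 and -0.66) had the sign of the ones used.

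Genes of single-strand binding and flap processing differed by a median of -0.75, and all 5 fell in the averaged blocked model. Rpa1 and Rpa2 are subunits of the protein that coats exposed single strands, Fen1 cuts the flaps of Okazaki fragments, Lig1 seals the nicks, and Exo1 is an exonuclease of replication and mismatch repair. Exo1 measured 9.95 and 9.56 at 0 h and 9.07 and 8.17 at 8 h with the control vector, and 10.13 and 9.57 at 0 h and 9.34 and 8.58 at 8 h with the major satellite vector. Lig1 measured 11.24 and 10.67 at 0 h and 10.71 and 9.58 at 8 h with the control vector, and 11.29 and 10.70 at 0 h and 10.83 and 9.69 at 8 h with the major satellite vector. Rpa1 measured 11.42 and 10.98 at 0 h and 11.31 and 10.50 at 8 h with the control vector, and 11.48 and 11.02 at 0 h and 11.33 and 10.67 at 8 h with the major satellite vector. Exo1 was separated between 0 h and 8 h with both vectors, and Lig1 and Rpa1 overlapped with both. The averaged difference was -1.01 ± 0.28 for Exo1 (adjusted p = 0.116 unblocked, 3.87e-05 blocked), which is 49.6% of the untreated level. It was -0.77 ± 0.36 for Lig1 (0.411 and 0.000761) and -0.27 ± 0.25 for Rpa1 (0.79 and 0.028). The partner subunits of replication protein A stood apart in size, with Rpa2 at -0.75 ± 0.29 (0.284 and 0.000131), a difference that was not tested. Rpa1 passed within neither vector in the blocked model (-0.30, 0.113 and -0.25, 0.163). Fen1 differed by -0.55 and did not pass with the major satellite vector (-0.42, 0.0854).

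Nucleotide supply genes had a median of -0.60. Rrm1 and Rrm2 are the large and small subunits of ribonucleotide reductase, Tyms makes thymidylate, Tk1 salvages thymidine, and Dut removes dUTP. Tk1 measured 11.32 and 10.88 at 0 h and 10.47 and 9.55 at 8 h with the control vector, and 11.46 and 10.87 at 0 h and 10.68 and 9.80 at 8 h with the major satellite vector. Dut measured 10.97 and 10.86 at 0 h and 10.49 and 9.71 at 8 h with the control vector, and 11.05 and 10.82 at 0 h and 10.63 and 10.02 at 8 h with the major satellite vector. Rrm1 measured 12.96 and 12.65 at 0 h and 12.81 and 12.16 at 8 h with the control vector, and 13.00 and 12.63 at 0 h and 12.84 and 12.34 at 8 h with the major satellite vector. Tk1 and Dut were separated between 0 h and 8 h with both vectors, and Rrm1, high on all arrays, overlapped with both. Tk1 differed by -1.01 ± 0.30 (adjusted p = 0.143 unblocked, 4.39e-05 blocked), Dut by -0.71 ± 0.21 (0.147 and 0.00109) and Rrm1 by -0.27 ± 0.20 (0.706 and 0.0233). Rrm1 did not pass within either vector in the blocked model (-0.32, 0.0741 and -0.22, 0.19). Rrm2, which pairs with Rrm1 in the enzyme, differed by -0.60 ± 0.41 (0.661 and 0.000831), and Tyms by -0.49 ± 0.20 (0.3 and 0.00241). All 5 fell in the averaged blocked model.

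Chaf1a and Chaf1b are subunits of chromatin assembly factor 1, which places histones on new DNA, and Slbp binds the stem loop of replication-dependent histone mRNA. The 3 genes differed by a median of -0.75. Chaf1a measured 10.73 and 10.07 at 0 h and 10.07 and 9.20 at 8 h with the control vector, and 10.75 and 10.04 at 0 h and 10.12 and 9.21 at 8 h with the major satellite vector. Chaf1b measured 11.93 and 11.56 at 0 h and 11.28 and 10.37 at 8 h with the control vector, and 11.96 and 11.37 at 0 h and 11.46 and 10.59 at 8 h with the major satellite vector. Slbp measured 10.46 and 10.32 at 0 h and 10.01 and 9.61 at 8 h with the control vector, and 10.81 and 10.17 at 0 h and 10.03 and 9.54 at 8 h with the major satellite vector. With the control vector all 3 were separated between 0 h and 8 h (Chaf1a by less than the rounding of its values), and with the major satellite vector Slbp alone was. Chaf1a differed by -0.75 ± 0.32 (adjusted p = 0.349 unblocked, 4.77e-05 blocked), Chaf1b by -0.78 ± 0.29 (0.257 and 0.000254) and Slbp by -0.64 ± 0.19 (0.15 and 0.000444). Within each vector, too, all 3 fell in the blocked model.

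Brca1, which acts in homologous recombination and fork protection, and Clspn, the adaptor through which stalled forks activate Chk1, had a median of -0.91. Brca1 measured 9.97 and 10.17 at 0 h and 9.38 and 9.20 at 8 h with the control vector, and 10.12 and 10.13 at 0 h and 9.39 and 8.92 at 8 h with the major satellite vector. Clspn measured 8.65 and 8.70 at 0 h and 8.03 and 7.35 at 8 h with the control vector, and 8.83 and 8.58 at 0 h and 8.22 and 7.42 at 8 h with the major satellite vector. All treated arrays of both genes lay below all untreated arrays of the same vector, and the lowest reading was a number 2 array at 8 h in each case. Brca1 fell in both models, with a difference of -0.87 ± 0.13 (adjusted p = 0.015 unblocked, 0.000216 blocked), to 54.6% of the untreated level. Clspn differed by -0.94 ± 0.22 and fell in the blocked model (0.0764 unblocked, 0.000633 blocked).

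The E2F factors themselves were lower as well. E2f1 and E2f2 are activators of S-phase genes, and E2f8 is an atypical E2F that represses them. E2f8 measured 10.92 and 10.57 at 0 h and 9.86 and 9.14 at 8 h with the control vector, and 10.96 and 10.55 at 0 h and 10.05 and 9.20 at 8 h with the major satellite vector. E2f1 measured 10.63 and 10.10 at 0 h and 10.02 and 8.89 at 8 h with the control vector, and 10.61 and 9.77 at 0 h and 10.05 and 9.33 at 8 h with the major satellite vector. E2f2 measured 8.69 and 8.15 at 0 h and 8.09 and 7.89 at 8 h with the control vector, and 9.01 and 8.41 at 0 h and 8.13 and 7.70 at 8 h with the major satellite vector. E2f8 and E2f2 were separated between 0 h and 8 h with both vectors, and E2f1 with the control vector. The averaged difference was -1.18 ± 0.25 for E2f8 (adjusted p = 0.0538 unblocked, 2.04e-05 blocked), the smallest blocked p of the 44 genes, and its level was 44.0% of the untreated one. It was -0.71 ± 0.33 for E2f1 (0.425 and 0.00048) and -0.61 ± 0.20 for E2f2 (0.186 and 0.00036). The activators and the repressor were lower together, and all 3 fell blocked within each vector.

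**Figure D3:**
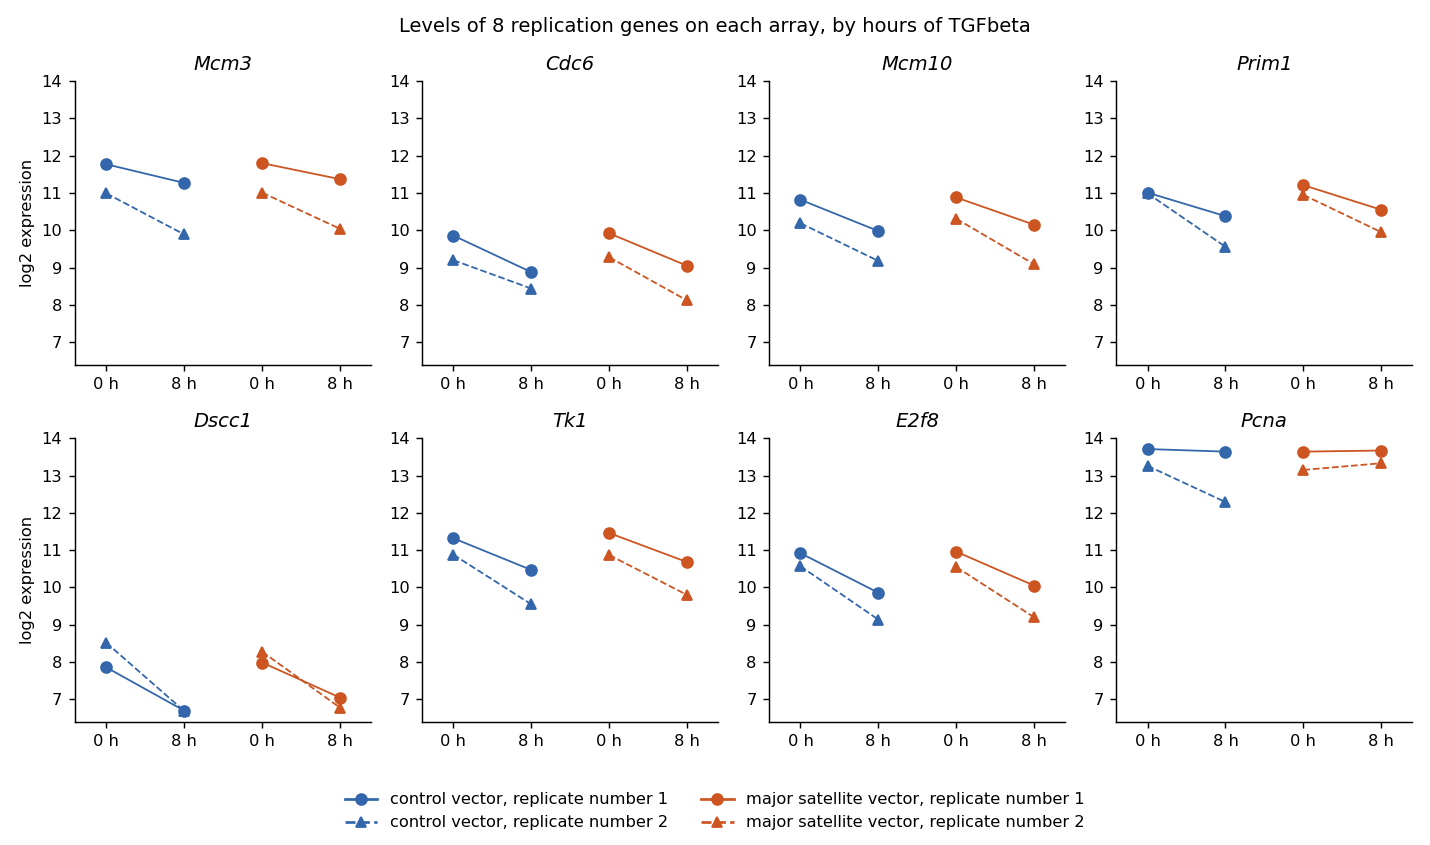
Deposited log2 expression of selected replication genes on each of the 8 arrays, 1 panel per gene, with the control vector on the left and the major satellite vector on the right of each panel; a line joins the 0 h and 8 h arrays of the same replicate number, and levels are not comparable between panels. Lines slope down in all panels apart from those of Pcna, where the major satellite lines are flat or rise slightly (0.02 and 0.18).

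Members with an E2F motif in the promoter window and members without one had nearly the same median. The median averaged difference was -0.66 for the 14 genes with a motif (-0.94 to -0.27), -0.67 for the 23 without one (-1.18 to -0.21) and -0.42 for the 7 whose window was not in the table used. Among the printed promoters, Cdc6 stood at -0.94 and Rfc3 at -0.54. E2f8 and Tk1, at -1.18 and -1.01, held none of the searched motifs in their windows. Only exact matches were counted, so a window without one is not shown to lack an E2F element. Whether such elements bear on the differences was not tested.

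The size of the TGFbeta difference varied between the replicate numbers. It was more negative in number 2 for 40 of 44 genes with the control vector (50.1% of all genes) and for 36 of 44 with the major satellite vector (55.7% of all genes). Tested with the vectors' arrays as the 2 arrays of each combination, the response in number 1 minus that in number 2 had a median of 0.36 over the members and was positive for 41 of them (52.9% of all genes). The labels do not make the vectors replicates of each other, so p-values of this test reflect the spread between vectors. No member passed in limma, while 0.166% of all genes passed with a positive difference and 0.0702% with a negative one, and 24 members had an unadjusted p under 0.05 (7.94% of all genes). The members with the smallest p were Mcm3 (0.57 ± 0.12, adjusted p = 0.109), Lig1 (0.56 ± 0.12, 0.115) and Clspn (0.65 ± 0.14, 0.124). With the vector as a further term these p became 0.0915, 0.0908 and 0.102, and 0.231% and 0.0903% of all genes passed. The members also started lower on the number 2 arrays. Their median level, number 2 minus number 1, was -0.37 (control vector) and -0.49 (major satellite vector) at 0 h and -0.77 and -0.71 at 8 h. Over all genes, not matched to the members in level, it was -0.09 to -0.06. Values over all probesets spread less on the number 2 arrays (SD 2.26 to 2.28) than on the number 1 arrays (2.37 to 2.38). The part of this spread in the members' differences was not tested. Across the 44 genes, the averaged change in number 1 and that in number 2 correlated at r = 0.76. This is a description over genes that share the same arrays.

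The comparison of vectors asked whether cells with the major satellite vector held other levels of these genes. Without TGFbeta no member passed in either limma model (0.00502% of all genes were lower unblocked and 0.0301% blocked, and 0 genes were higher). The median difference, major satellite minus control, was 0.05, with within-number medians of 0.10 (4 of 44 members below 0) and -0.02 (27 below 0). It was positive in both numbers for 17 members (25.0% of all genes) and negative in both for 4 (25.6% of all genes). E2f2 had the smallest p at 0.29 ± 0.28 (95% interval -0.38 to 0.96 unblocked and 0.05 to 0.53 blocked; adjusted p = 1 in both). Slbp stood at 0.10 (-0.55 to 0.75) and E2f1 at -0.17 (-1.31 to 0.96). In these untreated cells E2f2 was higher with the major satellite vector in both numbers (9.01 against 8.69 and 8.41 against 8.15), while Slbp was higher in number 1 alone. Without the number 1 array of Major at 0 h, the E2f2 difference was -0.01 unblocked. That fit set the number 2 Major array against control arrays of both numbers, so it also held the offset between the numbers. Within the numbers the E2f2 difference was 0.32 and 0.26. At an unadjusted p under 0.05 there were 0 members unblocked and 1 blocked (0.431% and 3.28% of all genes).

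With TGFbeta, the major satellite cells had slightly higher readings for most members, and none passed in either limma model (0.00502% of all genes were lower unblocked and 0.0301% blocked). The median difference was 0.13, and it was 0.14 in number 1 and 0.16 in number 2. In number 1 the 44 differences ran from 0.00 to 0.35 with none below 0 (44.6% of all genes were below 0), and in number 2 they ran from -0.37 to 1.05 with 12 below 0. The difference was positive in both numbers for 32 members (29.4% of all genes) and negative in both for 0 (25.1% of all genes). Rfc4 differed by 0.35 ± 0.21 (95% interval -0.16 to 0.85), Gins1 by 0.34 ± 0.20 (-0.15 to 0.83) and Orc6 by 0.23 ± 0.17 (-0.19 to 0.65), with adjusted p = 1 unblocked and 0.752 blocked for each. At an unadjusted p under 0.05 there were 0 members unblocked and 9 blocked (6.51% of all genes). Gins2 had the smallest blocked p (0.32, 0.00411 in limma before and 0.752 after adjustment). Without the control number 2 array at 8 h, the blocked median was 0.02, while the number 1 median of 0.14 does not use that array.

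The difference of the TGFbeta responses, major satellite minus control, was tested directly. No member and no other gene passed in either limma model, and 0 members unblocked and 1 blocked (E2f2) had an unadjusted p under 0.05 (0.221% and 3.3% of all genes). The median was 0.14, with 33 members above 0 (51.9% of all genes). Pcna stood at 0.62 (95% interval -0.87 to 2.11 unblocked, -0.04 to 1.29 blocked), Rfc4 at 0.28 (-0.43 to 1.0, -0.13 to 0.70) and E2f2 at -0.36 (-1.31 to 0.58, -0.70 to -0.02). The lowest limit of a member's blocked interval was -0.71 (Pole) and the highest was 1.29 (Pcna). Other intervals were narrower, such as -0.33 to 0.24 for Orc1, so the size of difference within the error varied from gene to gene. Without the control cells' number 2 array at 8 h the blocked median was 0.00.

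**Figure D4:**
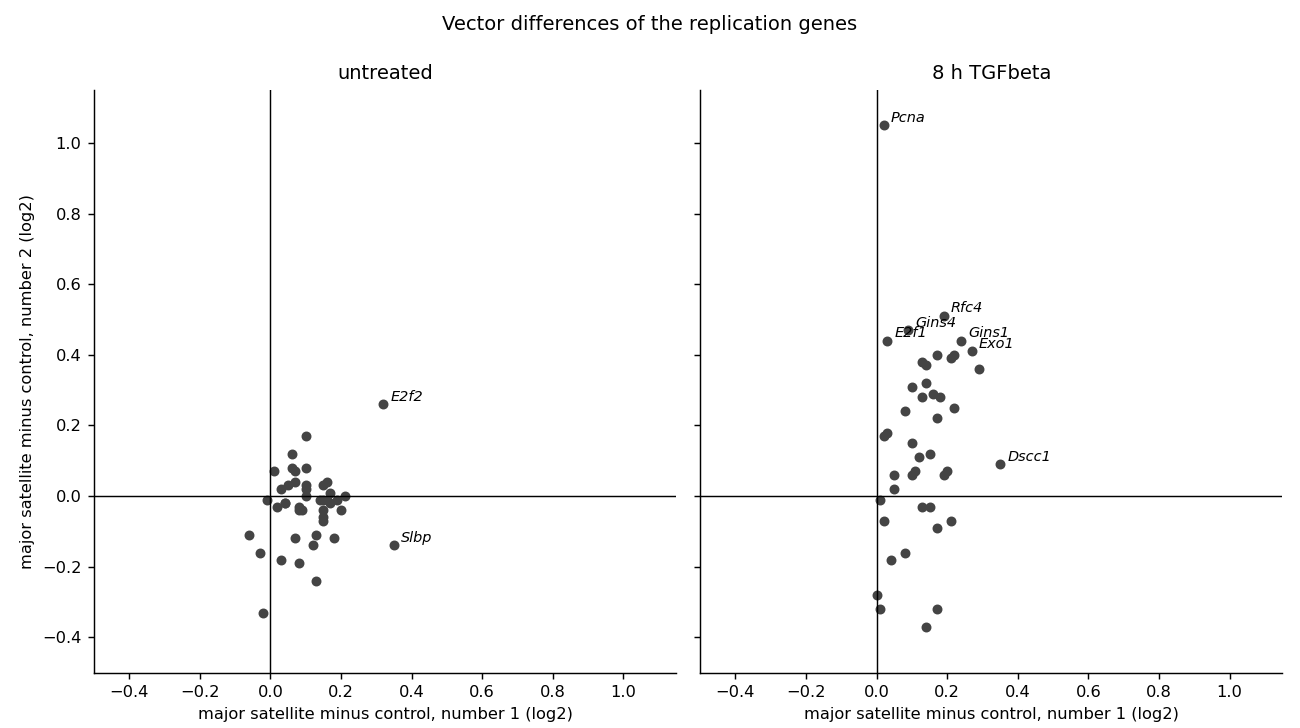
Each point is 1 replication gene, with its log2 difference, major satellite minus control vector, in replicate number 1 on the horizontal axis and in number 2 on the vertical axis, for untreated cells on the left and after 8 h of TGFbeta on the right. In number 1 the untreated points lie between -0.06 and 0.35, with 4 of 44 below 0, and the treated points between 0.00 and 0.35. In number 2 the untreated points spread from -0.33 to 0.26 and the treated points from -0.37 to 1.05, with Pcna highest.

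Other genes of the same processes were lower too, by the averaged TGFbeta difference in limma. Over all genes, 2.25% fell unblocked and 13.1% blocked, and 11.2% rose blocked. Of 39 further replisome and origin genes, 8 fell unblocked and 29 blocked, with a median of -0.42 (all genes 0.02). Among them were Cdc7 (-0.75, adjusted p = 0.0113), the kinase that fires origins, Mms22l (-0.89, 0.0144), which acts at damaged forks, Mtbp (-0.85, 0.0146), an initiation factor, and Rfc1 (-0.58, 0.0237), the large subunit of the clamp loader. The riser among them, in the blocked model only, was Pold4 (0.44; 0.504 unblocked, 0.00322 blocked), a small subunit of polymerase delta. Of 18 measured genes of nucleotide synthesis, 1 fell unblocked (Shmt1 of folate metabolism, -1.34, 0.0146) and 11 blocked, with a median of -0.36. Dck (-0.63), Ctps (-0.47) and Mthfd1 (-0.70) fell in the blocked model (0.000538, 0.000292 and 0.000907). Of 22 measured checkpoint and recombination genes, 3 fell unblocked and 17 blocked, with a median of -0.57. Among the 3 were the helicase gene Blm (-0.79, 0.0182) and the checkpoint kinase gene Chek1 (-0.70, 0.0271), while Mre11a (-0.63) fell blocked (0.000194). Of 13 measured genes of chromatin replication, 1 fell unblocked (the acetyltransferase gene Hat1, -0.86, 0.0456) and 10 blocked, with a median of -0.50. Nasp (-0.50), Hells (-1.07) and Dnmt1 (-0.60) were among the latter.

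The regulators of S-phase entry were mixed. Over all genes, 2.25% fell and 2.57% rose in the average unblocked, and 13.1% fell and 11.2% rose blocked. Of 15 E2F and pocket protein genes other than the members, Rbl1 (-0.60, limma adjusted p = 0.032), a pocket protein, and Lin54 (-0.49, 0.0436) fell unblocked and 8 fell blocked, with a median of -0.22. Lin9 (-0.48) and E2f7 (-0.73) fell in the blocked model (0.00506 and 0.000842), and Lin37 rose in it (0.24; 0.732 unblocked, 0.0207 blocked). Of 20 measured G1/S cyclins, kinases and inhibitors, 4 fell unblocked and 14 blocked, and 1 rose in both, with a median of -0.44. Cdk6 fell by 0.92 (0.00458) and Ccnd2 by 1.62 (0.0124). Ccne2, a cyclin of S-phase entry, measured 9.81 and 9.79 at 0 h and 8.79 and 8.11 at 8 h with the control vector, and 9.75 and 9.73 then 8.66 and 8.64 with the major satellite vector. Every treated reading was below every untreated one, and it fell by 1.22 ± 0.15 (0.00878). The riser was Cdkn2b, a TGFbeta-induced inhibitor of Cdk4 and Cdk6. It measured 10.04 and 10.14 at 0 h and 10.60 and 10.90 at 8 h with the control vector, and 10.24 and 10.29 then 10.77 and 10.84 with the major satellite vector, a rise of 0.60 ± 0.09 (0.0196). Myc differed by -0.45 ± 0.34 (0.723 unblocked, 0.00156 blocked), and its levels differed by more between the numbers (12.55 and 11.74 in untreated control cells) than with TGFbeta. Smad7, a direct target of TGFbeta signalling, was read as a check of the treatment labels. It measured 9.35 to 9.47 on the 4 untreated arrays and 10.49 to 10.78 on the treated ones, a rise of 1.20 ± 0.10 (0.00242 unblocked, 7.25e-06 blocked).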

How the data were processed

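Expression was measured on 8 Affymetrix arrays of total RNA from NMuMG cells. The authors deposited log2 expression values per probeset, and the submitters' processing notes name RMA and limma without versions or roles; the genome build was not given in the sources used here. Of 34760 probesets, 21640 had 1 gene symbol in the platform's probe table, and for the 954 genes with several the probeset with the highest mean was used, which left 19937 genes. Symbols were updated through Entrez identifiers with RefSeq's GRCm38.p6 table, from which the promoter windows also came. For depth, arrays give no counts, and their number limits the precision.

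The 4 group means over all arrays were modelled in R 4.3.3 by lmFit and eBayes of limma 3.58.1, with no filter and Benjamini-Hochberg adjustment, after a test of the code on simulated data. The replicate numbers pair the arrays: deviations from the group means of same-numbered arrays correlated across genes at 0.758 to 0.874. Of the 12 pairs, those of number 2 repeat those of number 1, because with 2 arrays a group the deviations mirror each other. Blocked values therefore stand beside the results. The 44 members and the other lists were chosen with earlier results of these data known. In each of 10 roles, the 2 members with the largest and the 1 with the smallest averaged TGFbeta difference were given with all 8 values. In vector comparisons and in the difference between replicate numbers the 3 members with the smallest p were named, and of each other list up to 4 genes. Smad7, Cdkn2b, Myc and Ccne2 were named whatever their p, and Cdkn1a was not analysed here. Pold4, Lin37, the markers that moved and, for its blocked value at 8 h, Gins2 were named after their values were seen, and 1 gene that the rule would name is not reported here. Alternatives were each array left out, other normalizations, the mean over probesets, a dim-gene filter at log2 6, a mean-variance trend and the replicate number as a random effect.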

Additional observations from a re-analysis of the deposited data

Results flagged for a closer look

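On the probeset used, the TGFbeta response of Pcna, which encodes the sliding clamp, had opposite signs with the 2 vectors. Both control pairs lay below 0 (-0.06 and -0.97) and both major satellite pairs above 0 (0.02 and 0.18). The response with the major satellite vector minus that with the control vector was 0.62 ± 0.62 unblocked (limma adjusted p = 1) and 0.62 ± 0.29 blocked (adjusted p = 0.999), so the difference did not pass. On the further Pcna probeset all 4 pairs were below 0 (-0.16, -0.86, -0.13 and -0.03).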

How the results depend on the processing

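Adding the replicate block, which the pairing of the arrays supplies, moved the count of members that fell from 1 to 36 with the control vector, from 0 to 36 with the major satellite vector and from 3 to 43 in the average over both. With the replicate number as a random effect (estimated correlation 0.656) these counts were 31, 25 and 38. The share of all genes that fell in that model and in the alternatives below is not given here, so these counts lack a background. Without the block, quantile normalization and median centring each left 0 with the control vector, and median centring gave 5 in the average. Leaving out 1 array at a time gave 0 to 0 unblocked and 15 to 38 blocked with the control vector, 0 to 0 and 13 to 38 with the major satellite vector, 1 to 4 and 38 to 44 in the average, and 0 to 1 for the difference between replicate numbers. In the same runs, signs turned for Pcna in the average (-0.55 to 0.13 unblocked, -0.44 to 0.02 blocked), for E2f2 (-0.01 to 0.59 unblocked), Slbp (-0.22 to 0.42 unblocked, -0.08 to 0.28 blocked) and E2f1 (-0.59 to 0.25 unblocked, -0.35 to 0.01 blocked) between the untreated vectors, and for Pcna (-0.06 to 1.30 unblocked) and Rfc4 (-0.01 to 0.58 unblocked) in the difference of responses. Unblocked, a fit with 1 array left out is unbalanced on the replicate number, so its difference also holds the offset between the numbers. The share of members with an E2F motif moved from 37.8% to 18.9% in the last 150 bases before the start, as fewer bases were searched. Combinations of the block with another normalization, filter, probeset rule or variance trend were chosen after seeing the data. With 2 arrays a group, small differences between vectors are within the error.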
